A study of Bos taurus with 64 samples.

Results

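The 5 microRNAs described here are miR-125a, miR-125b, miR-99a-5p, miR-99b and miR-100 of cattle (Bos taurus), named in the count table as bta-miR-125a, bta-miR-125b, bta-miR-99a-5p, bta-miR-99b and bta-miR-100. They were taken by name from the 1030 miRNA names of the table, and all 5 were among the 318 names abundant enough to be tested. The study counted miRNAs in skeletal muscle of Holstein-Friesian and Charolais steers that differed in residual feed intake (RFI), the gap between what an animal eats and what its size and growth predict. Low RFI marks the feed-efficient animals, which eat below the prediction. Muscle was taken at the end of each of 2 consecutive feeding phases of 70 days, with 14 days of acclimatisation between them, and there were 8 groups of 8 libraries, 64 in all. Intake had been recorded for 77 Holstein-Friesian and 90 Charolais steers.

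The concentrate groups received a barley-based high-concentrate ration ad libitum with a restricted allowance of grass silage. The grass groups received fresh cut perennial ryegrass ad libitum. Within each diet there were low-RFI and high-RFI Holstein-Friesian steers and low-RFI and high-RFI Charolais steers. All animals were castrated males, and the labels name no further treatment. Every steer ate grass in the first phase and concentrate in the second, so diet, phase order and age cannot be told apart. The 64 libraries came from 59 steers, of which 5 were sampled in both phases. The other steers were sampled in 1 phase, and p-values measure the spread between these animals.

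miRNAs are short RNAs that guide Argonaute proteins to messenger RNAs, and the seed, the stretch near the 5′ end, largely decides which messages are paired. miR-125a and miR-125b share a seed and are vertebrate relatives of the nematode miRNA lin-4, a timer of larval development. miR-99a, miR-99b and miR-100 share another seed and are known from mouse and human cells as repressors of the growth kinase MTOR. In mouse myoblasts miR-125b has been described as a repressor of insulin-like growth factor 2 and of muscle differentiation. The members lie in clusters of 3 hairpins, each holding a miR-99 or miR-100 gene, a let-7 gene and a miR-125 gene that are thought to be made from a shared primary transcript. let-7 is a family known for promoting differentiation.

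In the RefSeq gene table for cattle (assembly ARS-UCD2.0), 3 such clusters were found by gene name, each with its 3 genes on the same chromosome and 0 other genes lying between them. The first holds MIR99A, MIRLET7C and MIR125B-2 and overlaps the gene LOC132345457. The second holds MIR100, MIRLET7A-2 and MIR125B-1 and overlaps the genes LOC101903557 and LOC100848689. The third holds MIR99B, MIRLET7E and MIR125A and overlaps the gene SPACA6. miR-125b can therefore come from either of 2 hairpins, and its deposited values moved in steps of 0.5, with 29 of 64 libraries not at a whole count. The other 4 members held whole counts in all libraries. Mature miR-99a and miR-100 are near-identical, and miR-125a and miR-125b are related in sequence but less alike. The split of reads within each pair is uncertain where a read can match both.

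Library totals ran from 4795950 to 12245155 counts, with a median of 8143027. Levels below are CPM, counts scaled to a shared library size with TMM factors, which correct library sizes for differences in composition. These factors spanned 0.511 to 2.43, and miR-10b alone averaged 612550 CPM on this scale. The high-RFI Holstein-Friesian grass library 1 had the factor of 2.43 and 19.3% of its counts in miR-10b. The low-RFI Holstein-Friesian grass library 2 had 110805 CPM of miR-143, against at most 50025 CPM in the libraries other than these 2. The main breed and diet results are therefore also given without these 2 libraries. All 7 listed skeletal muscle markers were present in every library, at means from 14.6 CPM for miR-206, 247 CPM for miR-1, 346 CPM for miR-499 and 825 CPM for miR-208b to 8983 CPM for miR-133b, 74317 CPM for miR-133a and 104825 CPM for miR-486. Of the epithelial list, miR-200a was at 0 in 52 of 64 libraries, while miR-141 averaged 2.2 CPM and was at 0 in none. Of the liver list, miR-122 was at 0 in 51 libraries, while miR-192 averaged 518 CPM and miR-885 23.3 CPM, both at 0 in none.

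All 5 members were well expressed in muscle. miR-100 averaged 3114 CPM ± 1369 and ranked 18th among the tested miRNAs. miR-99b averaged 2853 CPM ± 1235 (rank 21), miR-125b 1877 CPM ± 554 (rank 28) and miR-99a-5p 1752 CPM ± 722 (rank 29). miR-125a was the least abundant at 755 CPM ± 218 (rank 43; SD, n = 64 throughout). Together they took 0.505% to 2.61% of a library's counts, with a median of 0.953%. Even the lowest count of any member in any library was 1837, for miR-125a, so counting error was small beside the differences between steers. Mature miRNAs have nearly the same length and CPM values can be set side by side, although capture can differ between sequences.

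miR-125a was the lowest of the 5 in 64 of 64 libraries. The order of the others was less fixed. miR-100 was the highest in 37 libraries, miR-99b in 24 and miR-125b in 3, and miR-100 exceeded miR-99b in 40. The means of miR-100 and miR-99b lay well within 1 SD of each other, as did those of miR-125b and miR-99a-5p, of which miR-125b was the higher in 44 libraries. The opposite arm of the miR-99a hairpin, miR-99a-3p, averaged 28.6 CPM ± 4.82 (SD, n = 64) and was below miR-99a-5p in 64 of 64. The let-7 miRNAs of the same clusters averaged 2005 CPM for let-7a-5p, which other hairpins also produce, 335 CPM for let-7c and 67.9 CPM for let-7e.

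**Figure D1:**
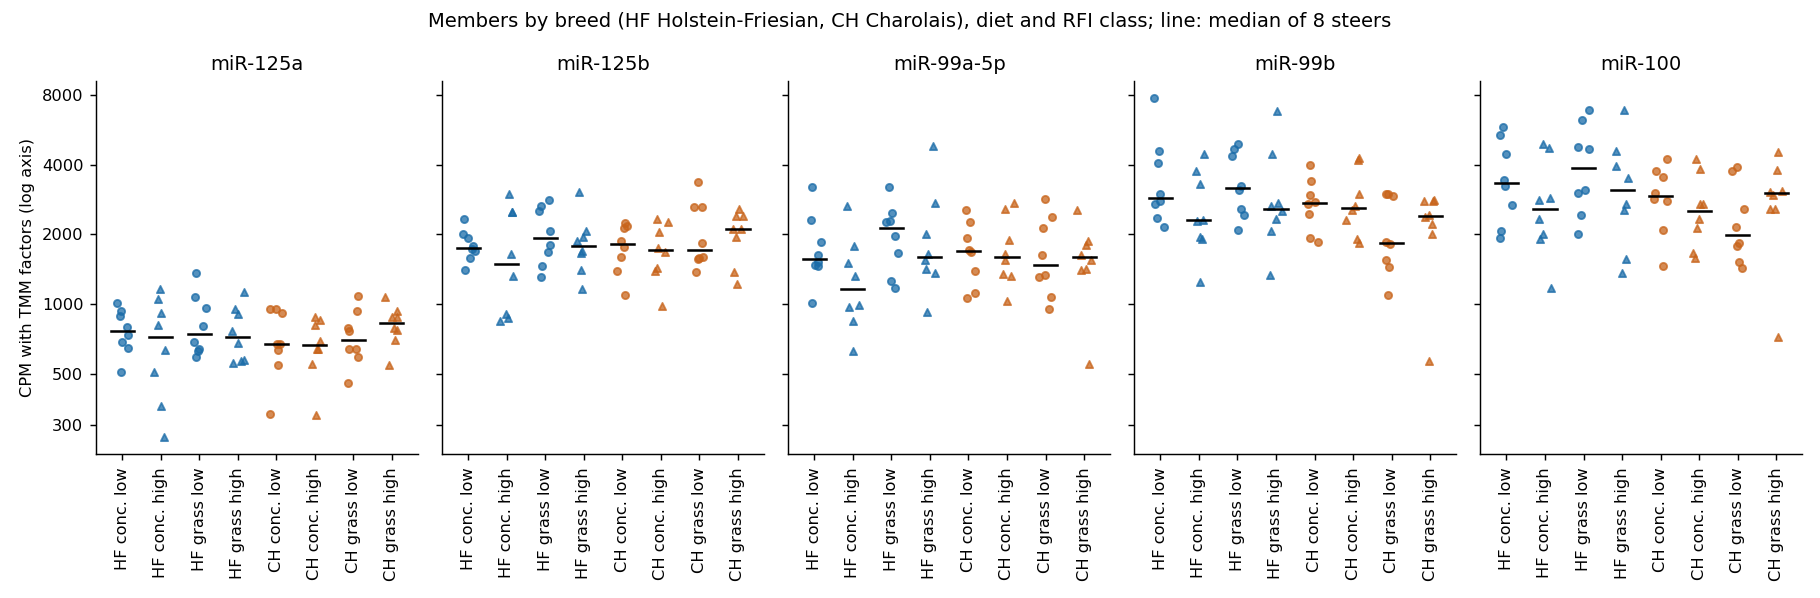
CPM with TMM factors (log axis) of each member in the 8 groups; each point is 1 library, circles are low-RFI and triangles high-RFI steers, Holstein-Friesian (HF) in blue and Charolais (CH) in orange, and the line is the median of 8. All groups overlap for all 5 members, and miR-125a sits lowest in every group.

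Steers of the same group differed widely in these miRNAs. The within-group SD on the log2 scale was 0.64 for miR-100, 0.58 for miR-99b, 0.57 for miR-99a-5p, 0.46 for miR-125a and 0.45 for miR-125b. The median over the 318 tested miRNAs was 0.44. Among the 34 miRNAs that averaged at least 1000 CPM, where counting error is small, the median was 0.36, and miR-100, miR-99b and miR-99a-5p ranked 3rd, 5th and 6th. Their cluster mates were far steadier on this TMM scale. Deviations of miR-99a-5p, miR-99b and miR-100 had r of -0.62, -0.54 and -0.43 with the log2 TMM factor. Whether the gap in spread holds with library totals was not tested. let-7a-5p had an SD of 0.18, which was the lowest of those 34, let-7c of 0.23 and let-7e of 0.31. miR-99a-3p had an SD of 0.24, less than that of miR-99a-5p from the same hairpin, although its counts were much lower.

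**Figure D2:**
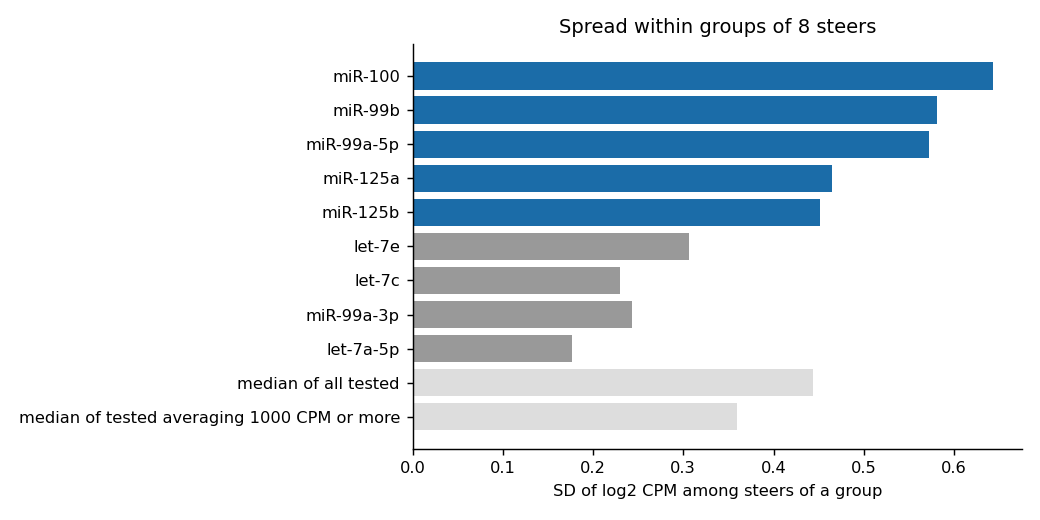
SD of log2 CPM among the 8 steers of a group, pooled over the 8 groups, for the members (blue), the let-7 miRNAs of their clusters and miR-99a-3p (grey), and the medians of all tested and of abundant tested miRNAs (light grey). The 5 members lie between 0.45 and 0.64, and the cluster mates and opposite arm between 0.18 and 0.31, all with TMM factors.

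The members varied together along seed families more than along clusters. Each library's log2 CPM was taken as a deviation from its group mean, and Pearson's r was computed over the 64 libraries for the 10 pairs of members. The 4 pairs that share a seed had r of 0.86 to 0.91. miR-99a-5p and miR-99b stood at 0.91 (Spearman's rho 0.89), miR-99b and miR-100 at 0.89 (rho 0.88), miR-125a and miR-125b at 0.86 (rho 0.86), and miR-99a-5p and miR-100 at 0.86 (rho 0.85). None of these 4 pairs shares a cluster.

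The 3 pairs that share a cluster had lower values, namely 0.68 for miR-99a-5p with miR-125b (rho 0.64), 0.61 for miR-100 with miR-125b (rho 0.58) and 0.45 for miR-99b with miR-125a (rho 0.45). The 3 pairs that share neither seed nor cluster ran from 0.43 to 0.58 (rho 0.44 to 0.51) and overlapped the pairs of the same cluster. The gap in r between the kinds of pair is a description and was not tested. All 10 correlations had permutation p-values of at most 0.00074 (two-sided, 100000 resamples, smallest possible p 1e-05), and adjusted p-values over the 10 pairs were at most 0.00074. Leaving out the 2 libraries farthest from the median of the first member, pairs of the same seed held r of 0.82 to 0.89, pairs of the same cluster 0.50 to 0.63 and the others 0.50 to 0.53.

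Pairs of the same seed also had the highest r within each diet and breed, while the ranges of the other kinds of pair overlapped. In concentrate libraries the ranges were 0.83 to 0.91 for the same seed, 0.49 to 0.64 for the same cluster and 0.39 to 0.64 for neither, and in grass libraries 0.81 to 0.91, 0.44 to 0.73 and 0.42 to 0.54. In Holstein-Friesian steers they were 0.84 to 0.92, 0.45 to 0.70 and 0.32 to 0.58, and in Charolais steers 0.87 to 0.90, 0.45 to 0.72 and 0.41 to 0.57. Without the 2 libraries that stand apart, they were 0.85 to 0.91, 0.46 to 0.67 and 0.42 to 0.58. With counts scaled by library total alone they were 0.82 to 0.91, 0.42 to 0.53 and 0.38 to 0.44. The points share the library scaling, and reads that match more than 1 member of a seed family would raise its r. The part of such reads was not tested.

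**Figure D3:**
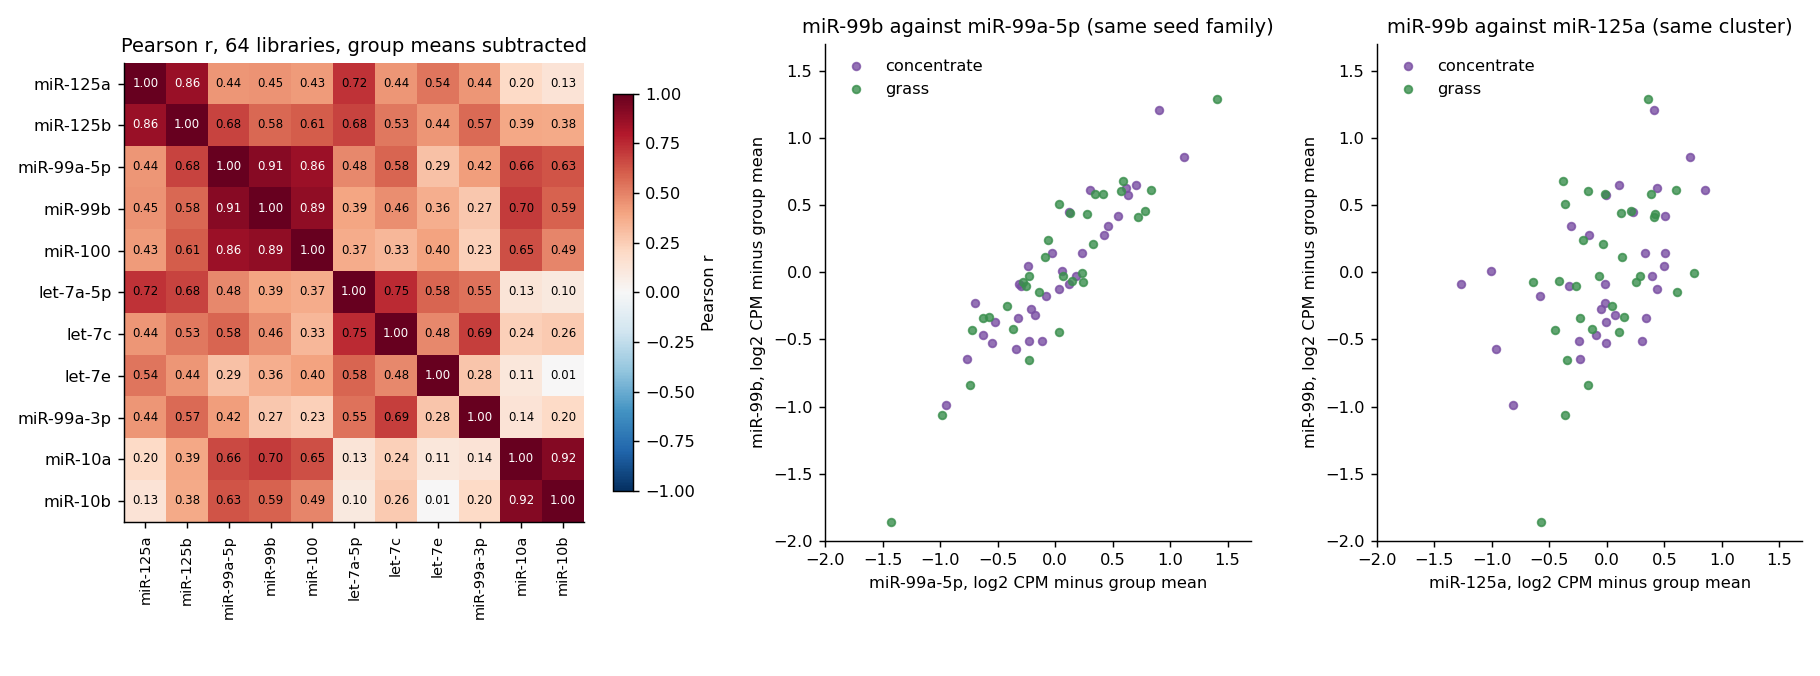
Left: Pearson's r over 64 libraries, after subtraction of group means, among the members, the let-7 miRNAs of their clusters, miR-99a-3p and the miR-10 pair. Middle and right: deviation of miR-99b (log2 CPM) against that of miR-99a-5p (same seed, r 0.91) and of miR-125a (same cluster, r 0.45), with 1 point per library, concentrate in purple and grass in green.

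The seed families also had different closest neighbours among all tested miRNAs that averaged at least 10 CPM, ranked by the same r over 64 libraries. miR-125a was most like miR-26b (0.79), let-7a-5p (0.72) and miR-27b (0.71), and miR-125b was most like miR-26b (0.78), let-7a-5p (0.68) and miR-30d (0.66). miR-99a-5p was most like miR-10a (0.66), miR-10b (0.63) and miR-502a (0.61), and miR-99b was most like miR-10a (0.70), miR-502a (0.60) and miR-10b (0.59). miR-100 was most like miR-409a (0.70), a miRNA at 24.8 CPM, then miR-10a (0.65) and miR-502a (0.63).

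The likeness to the miR-10 pair depended on scaling. With library totals alone, r with miR-10b was -0.12 for miR-99a-5p, -0.07 for miR-99b and -0.07 for miR-100, and r with miR-10a was 0.16 for miR-99a-5p, 0.34 for miR-99b and 0.38 for miR-100. On the TMM scale, deviations of the members had r with the log2 TMM factor of -0.62 for miR-99a-5p, -0.54 for miR-99b, -0.43 for miR-100, -0.39 for miR-125b and -0.16 for miR-125a. miR-10a and miR-10b are also relatives in sequence of the miR-99 and miR-100 members. The parts of scaling and of reads that match such relatives in these likenesses were not tested further. The likeness of miR-125a and miR-125b to let-7a-5p was 0.76 and 0.66 with library totals.

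Members were less tied to the let-7 miRNA of their own cluster than to their seed relatives. miR-99b had r of 0.36 with let-7e and miR-125a 0.54. miR-99a-5p had 0.58 with let-7c and miR-125b 0.53. miR-100 had 0.37 with let-7a-5p and miR-125b 0.68. miR-99a-5p had only 0.42 with miR-99a-3p, the other arm of its own hairpin, below its 0.91 with miR-99b from another cluster. These values are on the TMM scale and depended on scaling. With library totals, miR-99b had 0.34 and miR-125a 0.72 with let-7e, and miR-99a-5p had 0.29 and miR-125b 0.59 with let-7c. For let-7a-5p, miR-100 then had 0.28 and miR-125b 0.66, and miR-99a-5p had 0.21 with miR-99a-3p.

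The breeds differed in miR-99b when the steers ate grass. Holstein-Friesian grass steers had 1333, 2694 and 6820 CPM of miR-99b (lowest, median and highest of 16), against 566, 2299 and 2992 CPM in Charolais grass steers. The groups overlapped, and 13 of 16 Holstein-Friesian steers exceeded the Charolais median. The level was 1.51-fold higher in Holstein-Friesian steers, a log2 difference of 0.59 ± 0.20 (SE, n = 16 each; edgeR quasi-likelihood test, adjusted p = 0.0158). miR-99b was the only member of 5 called in this contrast, where 30.2% of the tested miRNAs were called. The median of the 5 members was 0.31, against 0.01 over all 318.

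miR-100 leaned the same way. It had 1359, 3315 and 6899 CPM in Holstein-Friesian grass steers (lowest, median and highest), against 724, 2584 and 4526 CPM in Charolais grass steers. The log2 difference was 0.51 ± 0.21 and did not pass the threshold (edgeR adjusted p = 0.0605). The value was close to the threshold and depended on settings. It was called with the DESeq2 size factors (0.57), with library totals (0.70), with DESeq2 (0.57), without the 2 libraries that stand apart (0.61), and in 57 of 64 fits that each left out 1 library. It was not called with limma-voom (0.48, adjusted p = 0.0935).

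The other 3 members were not called on grass. miR-99a-5p stood at 0.31 ± 0.20 (edgeR adjusted p = 0.253), with 923, 1817 and 4828 CPM in Holstein-Friesian grass steers and 552, 1591 and 2839 CPM in Charolais grass steers. miR-125a had 557, 726 and 1367 CPM in Holstein-Friesian grass steers and 457, 779 and 1084 CPM in Charolais grass steers, a difference of 0.05 ± 0.16. miR-125b had 1160, 1835 and 3058 CPM in Holstein-Friesian grass steers and 1221, 2025 and 3361 CPM in Charolais grass steers, a difference of -0.07 ± 0.15. So the 3 members of the miR-99 and miR-100 seed had positive differences and the miR-125 pair was near 0. miR-125b changed sign under total-count scaling (0.11), where the median of all tested miRNAs moved by 0.20.

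On concentrate 0 of 5 members were called between breeds, where 1.57% of tested miRNAs were called, and for 0 members was the unadjusted p below 0.05. DESeq2 and limma-voom also called 0. miR-99b had 1244, 2745 and 7778 CPM in Holstein-Friesian concentrate steers, against 1829, 2686 and 4266 CPM in Charolais concentrate steers (0.16 ± 0.20, edgeR adjusted p = 0.75). miR-100 had 1168, 2846 and 5843 CPM in Holstein-Friesian concentrate steers, against 1463, 2755 and 4254 CPM in Charolais concentrate steers (0.20 ± 0.21). The remaining members lay between -0.16 and 0.11.

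Averaged over both diets, miR-99b was 0.38 ± 0.14 higher in Holstein-Friesian steers (edgeR adjusted p = 0.0426), with means of 3220 CPM ± 1463 in Holstein-Friesian and 2486 CPM ± 824 in Charolais steers (SD, n = 32 each). It was 1 of 5 members called, where 21.7% of the tested miRNAs were. This call was lost without the high-RFI Holstein-Friesian grass library 4 (0.30, adjusted p = 0.0551), with limma-voom (0.34, adjusted p = 0.0748) and with limma-voom and the steer as a random replicate block (0.37, adjusted p = 0.0614). miR-100 stood at 0.35 ± 0.15 (edgeR adjusted p = 0.0839) and was called in 31 of 64 fits that each left out 1 library. The differences of miR-99a-5p, miR-125a and miR-125b were 0.08, 0.08 and -0.04.

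Whether the breed difference itself changed with diet was tested as an interaction, the breed difference on concentrate minus that on grass. It was -0.47 ± 0.28 for miR-99a-5p (edgeR adjusted p = 0.326), -0.43 ± 0.28 for miR-99b (adjusted p = 0.355) and -0.31 ± 0.30 for miR-100 (adjusted p = 0.519). With 0 of 5 members called, against 3.46% of the tested miRNAs, and 0 at an unadjusted p under 0.05, a breed difference particular to grass was not shown. DESeq2 and limma-voom also called 0 members. Without the 2 libraries that stand apart the interaction was -0.59 for miR-99a-5p, -0.51 for miR-99b and -0.41 for miR-100, with adjusted p-values of at least 0.188.

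Other miRNAs moved in the same contrast, where 30.2% of all tested miRNAs were called. Of 6 markers of smooth muscle and fibroblasts, 5 were higher in Holstein-Friesian than in Charolais steers on grass, namely miR-143 (0.47), miR-199a-5p (0.60), miR-199a-3p (0.65), miR-214 (0.64) and miR-21-5p (0.75). The summed level of all 6 ran from 16427 to 116968 CPM (median 32015) in Holstein-Friesian grass steers. In Charolais grass steers it ran from 18162 to 40618 CPM (median 28358). The highest Holstein-Friesian value includes the library with 110805 CPM of miR-143. Of 7 skeletal muscle markers, miR-206 was higher and miR-133a and miR-486 were lower, and of 7 leukocyte markers miR-155 and miR-146a were higher. miR-126-3p, 1 of 2 endothelial markers, was also higher. Both tested names of the liver list, miR-192 and miR-885, were lower. The part of these cell types in the miR-99b difference was not tested, and in whole muscle a change in the number of cells of a type cannot be told apart from a change in RNA per cell. Without the 2 libraries that stand apart miR-99b differed by 0.65 on grass (edgeR adjusted p = 0.0059).

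The let-7 family, of which 9 of 9 listed names were tested, had 2 members called between breeds on grass, against 30.2% of all tested miRNAs. let-7i was higher (0.26) and let-7f lower (-0.25) in Holstein-Friesian steers, and the family median was -0.04 against 0.01 over all tested. A difference between the let-7 family and the members was not tested. The differences of let-7a-5p, let-7c, let-7e and miR-99a-3p all lay near 0, as the plot of differences shows.

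**Figure D4:**
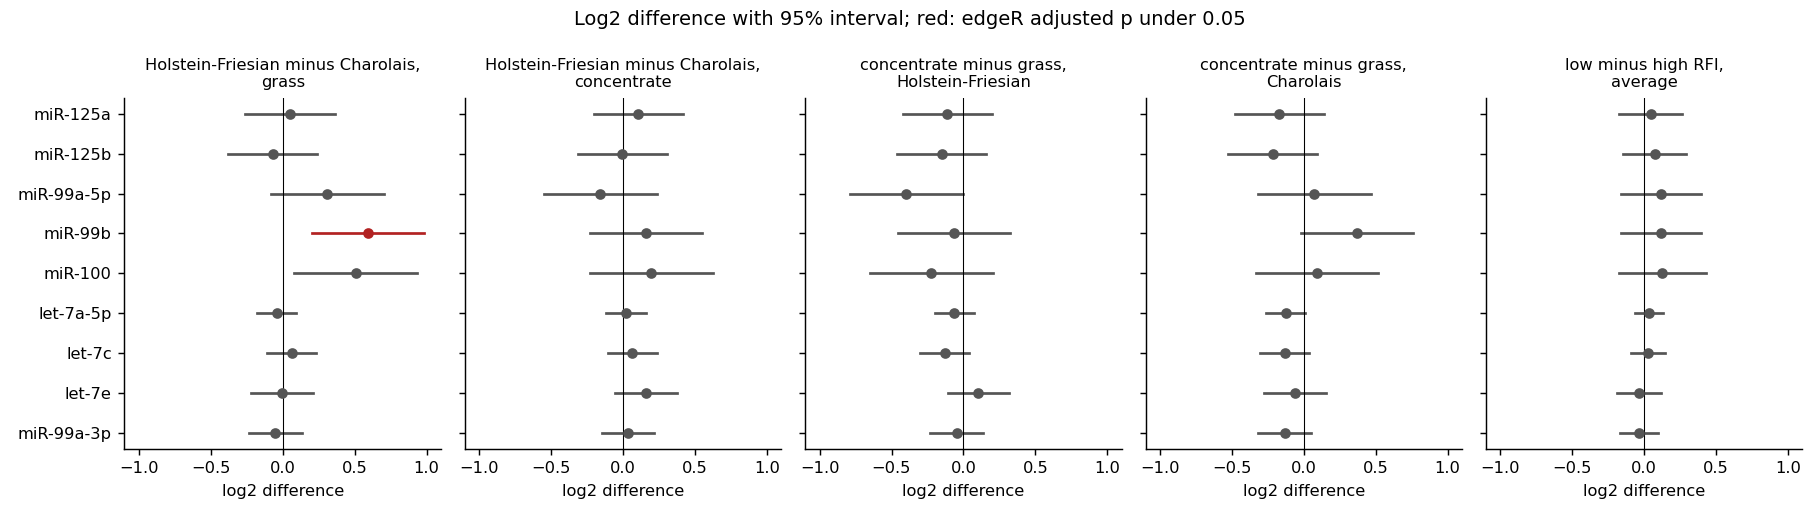
Log2 difference with its 95% interval for the 5 members, the let-7 miRNAs of their clusters and miR-99a-3p in 5 contrasts, from the fit across all 318 miRNAs. The only interval in red, the one called at an edgeR adjusted p under 0.05, is that of miR-99b between breeds on grass (0.59), and the intervals of the let-7 miRNAs are narrower than those of the members.

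Diet gave no called member. Averaged over breeds, 0 of 5 members differed between concentrate and grass (edgeR; 0 at an unadjusted p under 0.05; DESeq2 0, limma-voom 0), where 34% of the tested miRNAs were called. The differences of concentrate minus grass were -0.18 ± 0.11 for miR-125b, -0.16 ± 0.14 for miR-99a-5p, -0.14 ± 0.11 for miR-125a, -0.07 ± 0.15 for miR-100 and 0.15 ± 0.14 for miR-99b. miR-125b had 849, 1741 and 2987 CPM on concentrate (lowest, median and highest of 32), against 1160, 1910 and 3361 CPM on grass. miR-99b had 1244, 2703 and 7778 CPM on concentrate, against 566, 2551 and 6820 CPM on grass. The ranges of both diets overlapped almost whole.

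With library totals in place of TMM factors, 3 of 5 members passed the edgeR threshold between diets, where 39.3% of the tested miRNAs did, at -0.38 for miR-125a, -0.41 for miR-125b and -0.38 for miR-99a-5p. That scaling moved the median of all tested miRNAs by -0.25, and it turned the split of calls to 7 higher and 118 lower on concentrate, against 57 higher and 51 lower with TMM factors. Relative to the moved median, these differences were near those with TMM factors. miR-99b changed sign under it (-0.08).

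Within breeds, 0 of 5 members were called in Holstein-Friesian steers (24.2% of tested miRNAs called) and 0 of 5 in Charolais steers (20.8% called) by edgeR, DESeq2 or limma-voom. In Holstein-Friesian steers miR-99a-5p had 629, 1492 and 3197 CPM on concentrate, against 923, 1817 and 4828 CPM on grass. Its difference was -0.40 ± 0.20 (edgeR unadjusted p = 0.0478, adjusted p = 0.126), the only member with an unadjusted p under 0.05, and 12 of 16 concentrate steers lay below the grass median. Without the 2 libraries that stand apart it was -0.46 (adjusted p = 0.0639), and without the high-RFI grass library 4 it was -0.20 (adjusted p = 0.399). In Charolais steers miR-99b had 1829, 2686 and 4266 CPM on concentrate, against 566, 2299 and 2992 CPM on grass (0.37 ± 0.20, edgeR unadjusted p = 0.063, adjusted p = 0.168), and 12 of 16 concentrate steers lay above the grass median. It was called when the fit held Charolais libraries alone (0.43, adjusted p = 0.0391).

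Markers of other cell types moved with diet, where 34% of all tested miRNAs were called in the average over breeds. miR-451 and miR-144, the 2 erythrocyte markers, and 5 of 7 leukocyte markers were higher on concentrate in the average over breeds. So were miR-192 and miR-885 of the liver list and miR-1 of the skeletal muscle list, while miR-21-5p was lower. The summed erythrocyte level ran from 824 to 19490 CPM in Holstein-Friesian and from 680 to 49575 CPM in Charolais concentrate steers, against 779 to 11355 CPM in Holstein-Friesian and 300.2 to 10427 CPM in Charolais grass steers. In Holstein-Friesian steers 3 of 6 smooth muscle and fibroblast markers, miR-199a-3p, miR-214 and miR-21-5p, were lower on concentrate (24.2% of all tested called). The summed level of that list was 17306 to 43222 CPM on concentrate (median 31620), against 16427 to 116968 CPM on grass (median 32015). The medians were close, and the highest grass value includes the library with 110805 CPM of miR-143. The part of these cells in the members' levels was not tested.

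Among the 5 steers sampled in both phases, no member moved in the same direction in every steer. miR-99b was lower on concentrate in 1 of 5, with log2 differences of concentrate minus grass from -0.25 to 1.31 and a median of 0.60. miR-99a-5p was lower in 1 of 5 (median 0.21), miR-100 in 2 of 5 (median 0.07), miR-125a in 3 of 5 (median -0.03) and miR-125b in 3 of 5 (median -0.23). The Holstein-Friesian steer among them had as its grass library the one with the highest TMM factor, and all 5 members were higher on concentrate in that animal, by 0.66 to 1.31. One of the Charolais steers was labelled low-RFI on concentrate and high-RFI on grass.

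Ratios of 2 members within a library do not depend on how libraries are scaled. They were examined after the values above had been seen, as 3 ratios within clusters and 6 comparisons each, with two-sided permutation tests of libraries within strata (100000 resamples) and p-values adjusted over the 18 tests. These tests treat the libraries of steers sampled in both phases as separate animals. The log2 ratio of miR-99b to miR-125a averaged 1.96 ± 0.60 in Holstein-Friesian grass steers, against 1.41 ± 0.52 in Charolais grass steers (SD, n = 16 each). The difference was 0.56 (permutation p = 0.0093, adjusted p = 0.0433), and 13 of 16 Holstein-Friesian steers lay above the Charolais median. Between breeds this ratio did not pass on concentrate (0.02, permutation test, adjusted p = 0.979) or averaged over diets (0.29, adjusted p = 0.0913). In Charolais steers the same ratio averaged 2.03 ± 0.50 on concentrate, against 1.41 ± 0.52 on grass, a difference of 0.62 (permutation p = 0.0014, adjusted p = 0.0261). Of the concentrate libraries, 14 of 16 lay above the grass median. In Holstein-Friesian steers the diets differed by 0.08 (adjusted p = 0.764). The Charolais grass group is thus common to both passing comparisons of this ratio, and whether the diet difference itself differed between breeds was not tested.

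The log2 ratio of miR-100 to miR-125b averaged 0.84 ± 0.57 in Holstein-Friesian and 0.47 ± 0.45 in Charolais steers over both diets (SD, n = 32 libraries each, from 31 Holstein-Friesian and 28 Charolais steers), a difference of 0.37 (permutation p = 0.0054, adjusted p = 0.0433). On grass the difference was 0.55 (permutation p = 0.0096, adjusted p = 0.0433), with 0.84 ± 0.64 in Holstein-Friesian and 0.30 ± 0.44 in Charolais steers. On concentrate it was 0.20 and did not pass (permutation test, adjusted p = 0.354). There 8 of 16 Holstein-Friesian steers lay above the Charolais median. The ratio of miR-99a-5p to miR-125b differed by 0.35 between breeds on grass and did not pass (adjusted p = 0.0609). In all, 4 of the 18 tests passed, 3 between breeds and 1 between diets. The passes on grass were near the threshold. With each library left out in turn and the other 17 p-values kept, the ratio of miR-99b to miR-125a between breeds on grass passed in 16 of 32 fits (highest adjusted p = 0.0639, at 0.49 without the high-RFI Holstein-Friesian grass library 4). The ratio of miR-100 to miR-125b passed in 15 of 32 on grass (highest adjusted p = 0.0621, at 0.46 without the high-RFI Charolais grass library 5) and in 63 of 64 on average (0.34, adjusted p = 0.0523 without the high-RFI Holstein-Friesian grass library 2). The diet difference of miR-99b to miR-125a in Charolais steers passed in 32 of 32.

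Without the 2 libraries that stand apart, the breed differences were 0.54 for miR-99b to miR-125a on grass, and for miR-100 to miR-125b they were 0.53 on grass and 0.37 on average. With only the grass library kept for each of the 5 repeated animals, the average breed difference of miR-100 to miR-125b was 0.40 and the Charolais diet difference of miR-99b to miR-125a was 0.58.

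**Figure D5:**
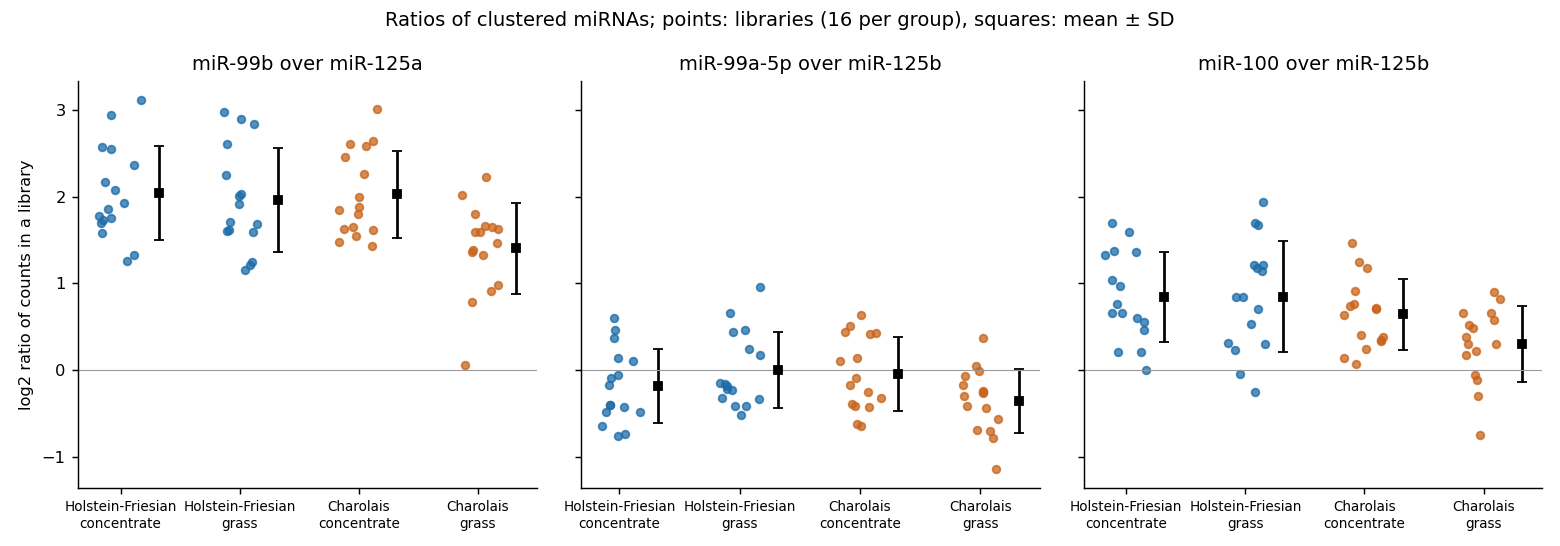
Log2 ratio of the counts of 2 clustered miRNAs in each library, by breed and diet, with 16 libraries per group (points) and mean ± SD (squares). The ratio of miR-99b to miR-125a is lower in Charolais grass steers, at a mean of 1.41, than in the other 3 groups, at 1.96 to 2.05, and single libraries of all groups overlap.

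RFI class gave no called member. In the average over breeds and diets and in each of the 4 combinations of breed and diet, 0 of 5 members were called between low-RFI and high-RFI steers, 0 had p below 0.05 before adjustment, and neither DESeq2 nor limma-voom called any. edgeR called 0% of the tested miRNAs in each of these contrasts. Averaged over all strata the differences of low minus high RFI were 0.13 ± 0.15 for miR-100, 0.12 ± 0.14 for miR-99a-5p, 0.12 ± 0.14 for miR-99b, 0.07 ± 0.11 for miR-125b and 0.04 ± 0.11 for miR-125a, each with an edgeR adjusted p of 0.9997. The 95% interval for miR-99b ran from -0.16 to 0.39.

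For miR-99a-5p, miR-99b and miR-100 the widest gaps between RFI classes among the 4 combinations of breed and diet were in Holstein-Friesian steers on concentrate. There miR-99b averaged 3682 CPM ± 1855 in low-RFI and 2654 CPM ± 1082 in high-RFI steers (SD, n = 8 each), a log2 difference of 0.47 ± 0.28 (edgeR adjusted p = 0.549), with 7 of 8 low-RFI steers above the high-RFI median. miR-99a-5p differed by 0.44 ± 0.28 (adjusted p = 0.631) and miR-100 by 0.35 ± 0.30 (adjusted p = 0.686). The low-RFI group includes replicate 3, with 7778 CPM of miR-99b and a TMM factor of 0.511. Library totals in place of TMM factors moved the median of all tested miRNAs by -0.32 in this contrast. miR-125a differed there by 0.12, against -0.16 in Charolais and 0.14 in Holstein-Friesian steers on grass, and miR-125b by 0.09, against 0.13 in Holstein-Friesian steers on grass. The interactions of RFI with breed and with diet also had 0 of 5 members called, 0 at an unadjusted p under 0.05, and 0% of the tested miRNAs called.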

How the data were processed

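Small RNA from skeletal muscle was counted per miRNA in 64 libraries. The authors deposited 1 table of estimated counts per miRNA, with fractional values in 60 names. Per the submitters' processing notes, reads were handled with FastQC 0.11.8, cutadapt 2.6, R 3.4 and edgeR 3.5 on ARS-UCD1.2. For the aligner and for the handling of reads that match several miRNAs, no source used here gives a name or rule. The labels' protocols name a stranded RNA library kit, and how it captured miRNAs is not stated. Columns were tied to steers by the animal number in the labels. No cattle miRNA sequences were at hand, so none are printed. The 5 members and the marker lists were chosen with earlier results of these data known.

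Values were rounded to whole counts, and 1 name with empty cells was left out. Of the rest, 318 passed edgeR's filter on low counts. edgeR 4.0.16 (R 4.3.3) fitted the 8 groups with TMM factors, robust quasi-likelihood tests and Benjamini-Hochberg adjustment over all 318 in each of 14 contrasts, at a threshold of 0.05. The pipeline was tested on simulated counts. Log2 CPM used a prior count of 2 and ratios a prior of 0.5. The named neighbours of each member were the 3 tested miRNAs outside the 5 with the highest r among those averaging at least 10 CPM. Alternatives were DESeq2 1.42.0, limma-voom (limma 3.58.1), other scalings, no filter, each library left out, steer as a block and the compared libraries alone. The removal of 2 libraries and the ratio tests were chosen after the data were seen. Pairing comes from the animal numbers. The 5 steers of both phases had deviations that correlated at -0.11 to 0.60 between their libraries, and limma estimated a correlation of 0.39 within steers.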

Additional observations from a re-analysis of the deposited data

Results flagged for a closer look

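Each member was examined in the 8 groups of 8 steers, 40 sets in all, for a single library far from the others (a gap over 0.526 of the group's range). For normally distributed values chance gives about 1 such library in 20 sets, and 3 were found. Whether CPM values follow that distribution was not tested, and the sets are not independent, since members vary together.

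In the high-RFI Holstein-Friesian grass group, replicate 4 had 4828 CPM of miR-99a-5p, and the next highest steer had 2735 CPM. The breed difference of miR-99b averaged over diets was not called without this library (0.30, edgeR adjusted p = 0.0551).

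In the low-RFI Holstein-Friesian concentrate group, replicate 3 had 7778 CPM of miR-99b, and the next highest steer had 4598 CPM. Its TMM factor of 0.511 was the lowest of the 64.

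In the high-RFI Charolais grass group, replicate 5 had 566 CPM of miR-99b, and the next lowest steer had 2019 CPM.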

How the results depend on the processing

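The call of miR-99b between breeds on grass held under every alternative fitted and in 64 of 64 fits without 1 library (0.47 to 0.71, edgeR adjusted p at most 0.0306). The number of members called between breeds was 1 with the settings of the report, both on average and on grass. On average it was 2 with DESeq2 size factors, total counts, DESeq2, repeated steers as a fixed replicate block and without the 2 libraries that stand apart, 0 with limma-voom and with steer as a random replicate block, and 0 to 2 with 1 library left out. On grass it was 2 with DESeq2 size factors, DESeq2, the fixed block, without the concentrate libraries of steers sampled in both phases and without the 2 libraries that stand apart, 3 with total counts, and 1 to 2 with 1 library left out. Blocking by steer changed no other count of members. Total counts split the breed calls into 37 higher and 3 lower on average, against 35 and 34 with TMM factors, and into 47 and 3 on grass, against 47 and 49.

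Between diets, total counts gave 3 called members on average and 3 in Holstein-Friesian steers, Charolais libraries alone gave 1, and leaving out 1 library gave 0 to 1 in Holstein-Friesian steers. That 1 was miR-99a-5p, without the low-RFI concentrate replicate 3 (-0.48, edgeR adjusted p = 0.0497) or the high-RFI concentrate replicate 5 (-0.53, adjusted p = 0.0205), and its value was -0.20 (adjusted p = 0.399) without the high-RFI grass replicate 4. In the RFI contrasts and interactions 0 members were called under each alternative.

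The values that changed sign were not called. Under total counts miR-99b between diets became -0.084, miR-99a-5p and miR-100 in Charolais steers -0.084 and -0.040, miR-125b between breeds 0.073 on average, 0.11 on grass and 0.033 on concentrate, miR-125a and miR-125b between RFI classes -0.077 and -0.038 on average and -0.20 and -0.20 in Holstein-Friesian concentrate steers. The fixed block gave miR-125b 0.0025 on average and 0.029 on concentrate between breeds, and the removal of 2 libraries gave 0.0091 on average and 0.045 on grass. With 1 library left out, miR-125b between breeds ran from -0.081 to 0.013 on average, -0.13 to 0.034 on grass and -0.098 to 0.017 on concentrate, miR-99a-5p on average from -0.0045 to 0.15, miR-100 between diets from -0.096 to 0.043, and miR-99b between diets in Holstein-Friesian steers from -0.19 to 0.10. Signs also changed in RFI and interaction contrasts, for example in miR-99a-5p between RFI classes (-0.19 to 0.21 in Holstein-Friesian and -0.030 to 0.22 in Charolais grass steers) and in the breed by diet interaction of miR-125a (-0.081 to 0.075). The cause of these changes was not tested. The members had at least 1837 counts in each library, and their deviations had r of -0.12 to -0.36 with the log2 library total.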
